A study of Mus musculus with 12 samples.

Results

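Tumors of the retro-orbital location, behind the eye, were compared with rhabdoid tumors of every other location profiled in the same mouse model. The members were the 4 tumors whose location label is retro-orbital, of 12 tumors in all, and the 8 other tumors were labelled cheek (3), meninges (3), vestibular nerve (1) and trigeminal nerve (1). All 12 tumors arose in P0-CreC;Smarcb1 flox/flox mice of FVB/N background, so no normal tissue and no Smarcb1-competent tumor was among the groups. In these mice the P0-CreC transgene drives Cre in early neural crest cells and in the Schwann cell lineage, and Cre deletes both floxed copies of Smarcb1. The ages of the animals are not given in the labels, and no treatment is named. Tumors were frozen after dissection, total RNA was depleted of ribosomal RNA, and stranded libraries were sequenced in 1 pool.

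The deposited values are RPKM, which divide the reads of a gene by its transcript length and by the mapped reads of the tumor. The totals that these values were scaled to, recovered from the steps between low values, ran from 13206168 to 57128422 fragments per tumor and were 27084402, 29397730, 57128422 and 41230614 in retro-orbital tumors 1 to 4. Tumors within a location are numbered in the order of deposition, and the numbers pair nothing. The leading digits of the tumor identifiers are shared by retro-orbital tumor 3 and the trigeminal nerve tumor, by cheek tumor 1 and meninges tumor 1, and by cheek tumors 2 and 3. Whether such tumors came from 1 animal is not stated, and if they did, p-values that treat the tumors as independent are too small. Retro-orbital tumor 3 stood apart from the other 3 in its profile, so each main result is also given without it.

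Rhabdoid tumors are aggressive embryonal tumors defined by loss of SMARCB1, a core subunit of the SWI/SNF complex, which moves nucleosomes and opens chromatin at enhancers and promoters. Cranial neural crest cells leave the dorsal neural tube after an epithelial to mesenchymal transition governed by factors such as SNAI1, SNAI2 and TWIST1, and populate the tissue around the eye, the pharyngeal arches, the meninges of the forebrain and the glia of cranial nerves. The periocular mesenchyme is marked by Foxc1 and Foxc2, the arches by Dlx and Hand factors, and posterior positions along the body axis by Hox genes. The orbit also holds muscle, gland, fat, nerve and bone, any of which can be dissected with a tumor there.

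Smarcb1 (chromosome 10, 75896769 to 75921617, mm10) was read at low level in all tumors. Its RPKM was 2.9, 4.64, 4.72 and 6.0 in retro-orbital tumors 1 to 4, a mean of 4.56 ± 1.27 (SD, n = 4), and 4.04 ± 1.45 (SD, n = 8) in the other tumors. The difference of 0.17 ± 0.27 (SE) on the log2(RPKM + 1) scale, the scale of every difference below, was smaller than the spread between tumors (limma, adjusted p = 0.858). With no Smarcb1-competent sample, these levels do not check the deletion, since a whole tumor also holds stromal and blood cells that keep the gene.

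Markers of the tissues of the orbit were uneven among the 4 tumors. The photoreceptor factor Crx reached at most 0.0884 RPKM and the lens crystallin Cryaa 0.894 RPKM in any retro-orbital tumor. Myh13, the myosin of extraocular muscle, was 0.121, 0.62, 0.40 and 0.0959 RPKM in tumors 1 to 4, against 0.0588 to 129 (median 6.25) in the 8 others. Phox2a, a marker of the oculomotor nucleus, reached at most 0.136 RPKM. Sox10, a factor of Schwann cells and other crest derivatives, was low as well, at 0.939, 0.0878, 1.5 and 0.197 RPKM. Whole lists were less uniform than these single markers. The summed RPKM of 18 retina and lens genes was 5.39, 6.23, 35.6 and 7.08 in tumors 1 to 4 against 5.13 to 30 (median 9.12) in the others, with tumor 3 the highest of all 12. The sum of 16 Schwann cell genes was 45.4, 106, 217 and 141 against 52.3 to 284 (median 183), and that of 25 skeletal muscle genes 374, 86.1, 33.4 and 400.2 against 19.98 to 818 (median 461).

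The first question was whether tumors of this location resembled each other more than they resembled tumors elsewhere. Distance was taken as 1 minus Pearson's r, computed on the 5000 genes that varied most. The mean distance was 0.345 among the 4 retro-orbital tumors and 0.343 between them and the 8 others, a difference of -0.00147 (two-sided exact permutation test over all labellings of the tumors, p = 0.966). Without tumor 3 the means were 0.274 and 0.333 (exact permutation test, p = 0.279), so the sign of the difference turned with 1 tumor. Only 1 of the 4 tumors had another retro-orbital tumor as its nearest neighbour. Tumor 1 lay nearest to retro-orbital tumor 4 (0.250), tumor 2 to cheek tumor 2 (0.236), tumor 3 to the trigeminal nerve tumor with which it shares an identifier part (0.293), and tumor 4 to meninges tumor 2 (0.210). For comparison, cheek tumors 2 and 3 lay 0.0359 apart.

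**Figure D1:**
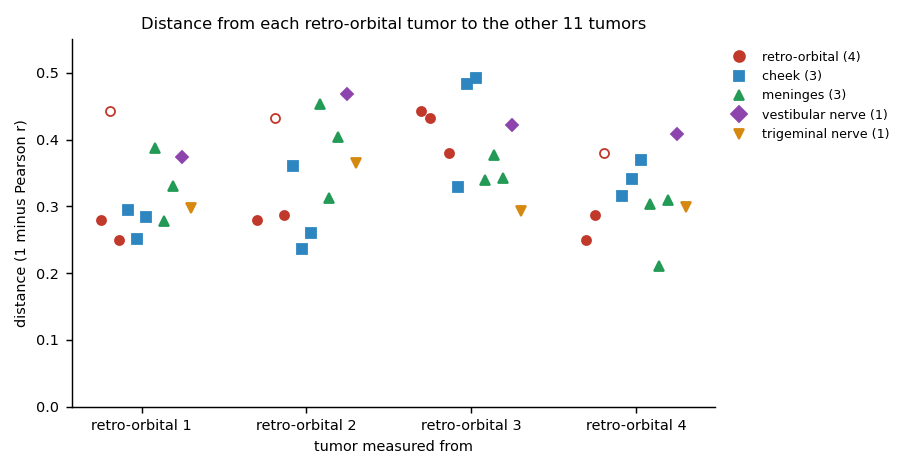
Distance (1 minus Pearson's r, 5000 most variable genes) from each retro-orbital tumor, on the horizontal axis, to the 11 other tumors. Points are tumors, coloured by location, and the open circle is retro-orbital tumor 3, whose mean distance is 0.418 to the other retro-orbital tumors and 0.385 to the 8 tumors of other locations.

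Gene by gene, no transcript passed the threshold. Of 15043 genes with an RPKM of at least 1 in 3 or more tumors, limma called 0 at an adjusted p under 0.05 (0%), and 1333 (8.86%) had an unadjusted p under 0.05, of which 559 (3.72%) were higher and 774 (5.15%) lower in the retro-orbital tumors. The median difference over all genes tested was -0.09. The lowest adjusted p was 0.106, for Slc22a17 (chromosome 14, 54906304 to 54913132), which encodes a membrane receptor for the siderophore-binding protein lipocalin 2. Slc22a17 was 5.46, 5.15, 7.13 and 7.83 RPKM in retro-orbital tumors 1 to 4 and 13.1 to 38.7 (median 23) in the 8 others. All 4 tumors thus lay below the lowest of the others, with a difference of -1.80 ± 0.25. Without the trigeminal nerve tumor this was the 1 gene called, at -1.92 (limma, adjusted p = 0.0126). Lcn2 itself, the ligand, was 1.69, 4.83, 2600.2 and 4.75 RPKM in the 4 tumors and 4.38 to 105 (median 29.2) in the others, with tumor 3 alone above them.

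In 55 genes (0.366%) every retro-orbital value lay above all 8 others, and in 64 (0.425%) every value lay below. The 10 of each with the largest differences are described here, and since they were picked for not overlapping, their differences are a description. Mmp12 (chromosome 9, 7344381 to 7369499), the elastase of macrophages, led the higher genes with 10.2, 11.6, 32.6 and 39.7 RPKM in tumors 1 to 4 against 0.78 to 7.8 (median 2.0) in the others, a difference of 2.65 ± 0.47 (limma, adjusted p = 0.265). Tumors 3 and 4 carried most of it. Fxyd6, a regulator of the sodium pump, was 11.5, 33.6, 24.6 and 39.98 RPKM against 1.26 to 10.5 (median 5.56), with tumor 1 only just above the highest other tumor. Ccdc80 (chromosome 16, 45093402 to 45128077), which encodes a secreted matrix-associated protein, was the most abundant of these genes, at 146, 225, 143 and 214 RPKM against 29.7 to 108 (median 63.4), and its 4 values were close together. Rin2, an exchange factor for the endosomal GTPase Rab5, was similarly even, at 35.2, 53.4, 43.8 and 49.4 RPKM against 9.73 to 30.1 (median 15.4). Iqgap2 and Gng2, a scaffold protein and a G protein subunit, were both highest in tumor 1, at 58.8 and 45.3 RPKM, with the other 3 tumors at 10.4, 17.5 and 10.1 and at 20.7, 12.5 and 10.7.

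The other higher genes were at low level. Plekhg3 was 8.61, 20.3, 8.7 and 19.8 RPKM in tumors 1 to 4 against 2.9 to 6.87 (median 4.05). Ccdc19 was 4.09, 3.36, 8.48 and 3.55 against 0.233 to 2.47 (median 1.52), and Ccl28, a chemokine of mucosal epithelia, was 1.92, 4.22, 5.84 and 1.37 against 0.356 to 0.897 (median 0.621), both highest in tumor 3. Pcdhga1 was 9.02, 5.09, 5.24 and 4.04 RPKM against 1.01 to 2.49 (median 1.45), a difference of 1.43 ± 0.23. It belongs to the gamma protocadherin cluster, whose members share their last exons, so the reads of 1 member cannot be told from those of another there and its value is uncertain.

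Among genes lower in all 4 tumors, Col9a2 (chromosome 4, 121039385 to 121055322), a collagen IX chain of cartilage, was 0.202, 0.0991, 0.637 and 0.283 RPKM against 0.914 to 10.7 (median 3.23) in the 8 others. Prim1 (chromosome 10, 128015168 to 128030037), the small subunit of DNA primase, was 12.1, 8.1, 5.44 and 12.5 RPKM against 16.2 to 38.8 (median 21.7), lowest in tumor 3, with a difference of -1.26 ± 0.27. Maml3, a coactivator of Notch signalling, was 2.15, 5.34, 5.74 and 1.41 RPKM against 6.26 to 13.3 (median 7.8), and Kif5c, a kinesin heavy chain of neurons, was 1.26, 1.55, 1.88 and 1.0 against 1.91 to 10.3 (median 3.85). In both genes the highest retro-orbital value, in tumor 3, came close to the lowest other tumor. Irs4, an adaptor of insulin receptor signalling, was 0.0295, 0.0599, 0.0224 and 0.0116 RPKM in tumors 1 to 4 and up to 20.7 in the others, where its range was wide. Pgbd5 and Gm15217 were near 0, at 0.0654, 0.157, 0.211 and 0.155 RPKM and at 0.0548, 0.101, 0 and 0.216 RPKM. Gm15217 (chromosome 14, 46379414 to 46383608, plus strand) overlaps Bmp4 (chromosome 14, 46383520 to 46390669, minus strand), and since the strand setting of the counting is not stated, reads of the pair may not be told apart. Mir378a (5.54, 5.1, 0 and 7.28 RPKM) and Mir3471-1 (2.49, 6.87, 4.71 and 2.33 RPKM) are hairpin features in libraries of long RNA, and their values do not measure mature miRNAs.

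**Figure D2:**
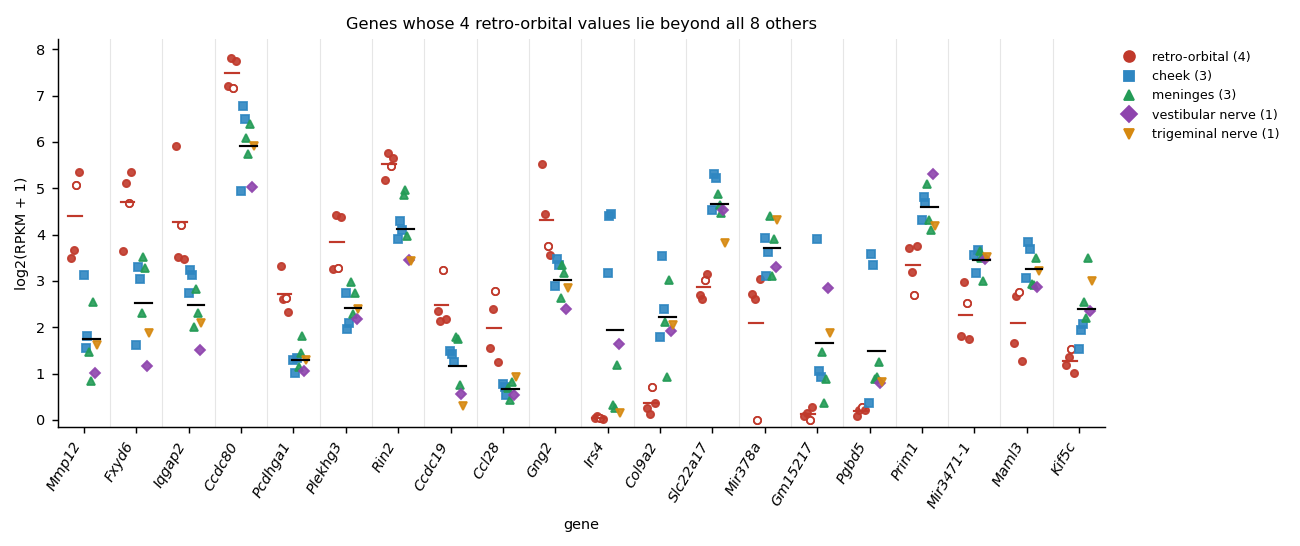
Level of the 10 genes above and the 10 genes below all other tumors in every tumor, as log2(RPKM + 1). Points are tumors coloured by location, the open circle is retro-orbital tumor 3, the red and black lines are the means of the 4 retro-orbital and the 8 other tumors, and the red points of each gene lie beyond all others, by 2.65 on average for Mmp12 and by -1.80 for Slc22a17.

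Leaving out tumor 3 gave 14795 genes tested and again 0 called (0%), with 1172 (7.92%) at an unadjusted p under 0.05. The lowest adjusted p was 0.219, for Angptl4 (chromosome 17, 33773750 to 33781830), which encodes a secreted inhibitor of lipoprotein lipase. It was 24.4, 29.7, 5.56 and 23.7 RPKM in tumors 1 to 4 against 1.48 to 11.1 (median 2.95) in the others, so tumor 3 was the 1 retro-orbital tumor within their range. The same held for Timp1, an inhibitor of matrix metalloproteinases, at 1579, 1438, 125 and 681 RPKM against 18.3 to 277 (median 169), with a difference of 3.31 ± 0.75 over the 3 tumors (limma, adjusted p = 0.373). Lsp1, an actin-binding protein of leukocytes, was 72.7, 160.2, 24.9 and 70.3 RPKM against 4.86 to 29.5 (median 21.9). On the lower side, Slc12a2, the sodium, potassium and chloride cotransporter of secretory cells, was 14.2, 6.82, 64.3 and 9.95 RPKM against 23.3 to 179 (median 57.1), and Tmem30b 1.36, 7.48, 41.2 and 5.48 against 8.58 to 173 (median 69.1). Ctxn3 was 0.0502, 0.624, 4.7 and 0.313 RPKM against 1.34 to 106 (median 13). In these lower genes tumor 3 lay with the other locations. In all, 121 genes (0.818%) lay above and 223 (1.51%) below all 8 others in tumors 1, 2 and 4.

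Tests against a single location, in 1 fit with location as a factor, gave a few called genes. Against the cheek tumors 4 genes fell (0.0266%) and 0 rose (0%), while 1782 (11.8%) had an unadjusted p under 0.05. Mab21l2 (chromosome 3, 86545581 to 86548629), a gene of eye and arch development, was 0.929, 1.02, 2.54 and 0.772 RPKM in retro-orbital tumors 1 to 4 and 49.2, 38.3 and 36.3 in cheek tumors 1 to 3, a difference of -4.24 ± 0.39 (limma, adjusted p = 0.00858). Irs4 (chromosome X, 141710998 to 141725263) was at most 0.0599 RPKM in a retro-orbital tumor and 8.05, 20.1 and 20.7 RPKM in the cheek tumors, a difference of -3.96 ± 0.37 (limma, adjusted p = 0.00858). Irs4 passed the filter on low values through tumors of other locations alone, so its call adds nothing to the levels. Slc22a17 was 22.1, 38.7 and 36.1 RPKM there and fell by 2.15 (limma, adjusted p = 0.0224). Col3a1 (chromosome 1, 45311538 to 45349706), which encodes collagen III of soft connective tissue, was 499.5, 356, 435 and 291 RPKM in the retro-orbital and 1648, 2207 and 1530.3 in the cheek tumors and fell by 2.19 (limma, adjusted p = 0.0418). In all 4 genes the groups did not overlap. The genes were picked by their calls, and the share without overlap over all genes was not computed, so this is a description.

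The number of genes called against the cheek rested on single tumors. It was 0 without cheek tumor 2, cheek tumor 3 or retro-orbital tumor 4, it was 2 without retro-orbital tumor 2 or 3, and it was 147 without cheek tumor 1, which leaves the near-identical cheek tumors 2 and 3 as the group. Without retro-orbital tumor 3 the 2 genes called (0.0135%) were Mab21l2 and Irs4, at adjusted p = 0.0183 and 0.0498 (limma). The limit given for the call of Irs4 holds there as well.

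Against the meninges tumors 3 genes were called (0.0199%), with 1 higher (0.00665%) and 2 lower (0.0133%), and 1403 (9.33%) had an unadjusted p under 0.05. Thbs4 (chromosome 13, 92751590 to 92794818), a thrombospondin of tendon and muscle matrix, was 23.3, 12.6, 14.2 and 11.5 RPKM in the retro-orbital tumors and 1.63, 2.77 and 1.58 in meninges tumors 1 to 3, and rose by 2.42 ± 0.27 (limma, adjusted p = 0.0244). Posterior homeobox genes of the Hoxd cluster went the other way. Hoxd10 (chromosome 2, 74691924 to 74695105) was 0.020, 0.0368, 0.397 and 0.157 RPKM in the retro-orbital and 14.6, 8.86 and 5.74 in the meninges tumors, a difference of -3.15 ± 0.31. Hoxd11 (chromosome 2, 74679557 to 74687016) was 0.00877, 0.0404, 0.32 and 0.0173 against 7.54, 4.24 and 3.88 RPKM, a difference of -2.47 ± 0.27 (limma, adjusted p = 0.0244 for both). These 2 genes passed the filter on low values through the 3 meninges tumors alone, where they are high, so their calls add nothing to the levels. With a pseudocount of 0.1 neither was called (limma, adjusted p = 0.0711 and 0.142). The cheek tumors were as low in Hoxd10, at 0.0953, 0.149 and 0.123 RPKM. Over the Hox clusters 17 of 39 genes could be tested against the 8 others, with 0 at an unadjusted p under 0.05 (background 8.86%) and a median difference of -0.38. Part of this list also passed the filter through the meninges tumors. Without meninges tumors 1, 2 or 3 in turn, 10, 13 and 10 genes were tested, with medians of -0.11, -0.37 and -0.29. The summed RPKM of the 39 genes was 1.43, 53.9, 38 and 19.6 in retro-orbital tumors 1 to 4 and 231, 73.6 and 62.4 in the meninges tumors. It was 117, 2.49 and 1.85 in cheek tumors 1 to 3, 2.81 in the vestibular nerve tumor and 98.6 in the trigeminal nerve tumor. High sums were thus not particular to the meninges.

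This count also moved with single tumors. It was 0 without retro-orbital tumor 2 or 4 or without meninges tumor 1 or 3, and 2 without meninges tumor 2. It was 7 without retro-orbital tumor 1 and 41 without retro-orbital tumor 3 (0.277%), with 4 higher (0.027%) and 37 lower (0.25%), the first 3 genes among them. The 37 lower genes held Hoxd4 and Hoxd8 beside Hoxd10 and Hoxd11, and the glutamate transporters of astrocytes Slc1a2 and Slc1a3. The limit given for the calls of Hoxd10 and Hoxd11 holds there as well. Whether Hoxd4 and Hoxd8 passed the filter through the meninges tumors alone is not given here, so no result is drawn from their calls. Slc1a3 was 0.606, 5.23, 29.3 and 4.37 RPKM in retro-orbital tumors 1 to 4 and 54.2, 77.6 and 73 in the meninges tumors, and Gfap, the intermediate filament of astrocytes, was 0.626, 0.309, 128 and 13.3 against 228, 65.1 and 259.8 RPKM. The summed RPKM of the 14 astrocyte and oligodendrocyte markers was 132, 424, 472 and 207 in the retro-orbital and 537, 452 and 648 in the meninges tumors, and the oligodendrocyte marker Olig2 was at or near 0 in the retro-orbital tumors. Slc1a2 and Slc1a3 are themselves among the 37 genes, so they do not show separately that astrocyte markers moved with them. The sums of the list overlapped over all 4 retro-orbital tumors and did not overlap without tumor 3. The part of astrocyte markers in the result was not tested. In bulk RNA, fewer cells of a type and less RNA per cell cannot be told apart.

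**Figure D3:**
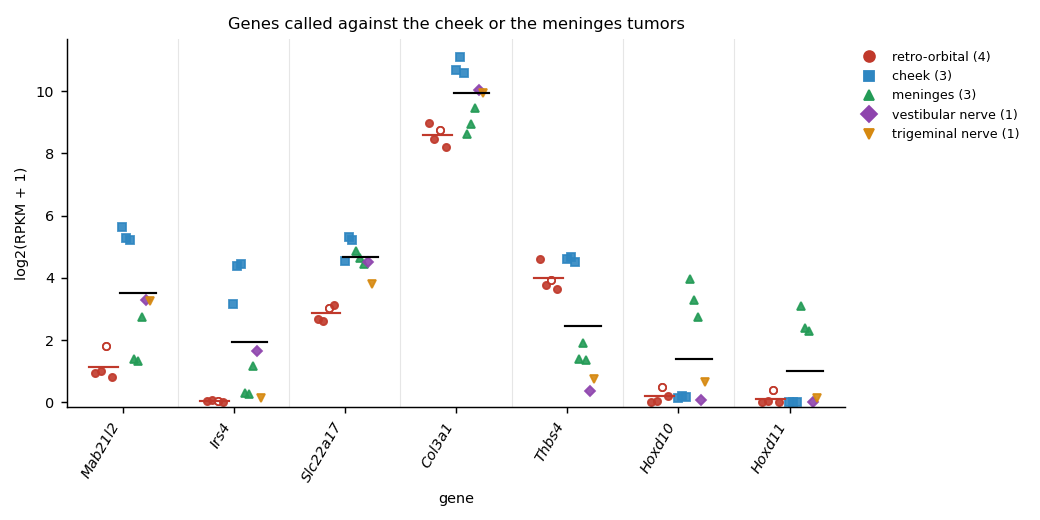
Level of the 4 genes called against the cheek tumors and the 3 called against the meninges tumors in all 12 tumors, as log2(RPKM + 1). Points are tumors coloured by location, the open circle is retro-orbital tumor 3, and lines are the means of the retro-orbital tumors (red) and of the 8 others (black). The meninges tumors alone are high in Hoxd10 and Hoxd11, and the cheek tumors are highest in Col3a1.

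No regulator of the neural crest passed the threshold. Of 19 tested genes of a list of 22 crest specifiers, 1 was higher and 2 were lower at an unadjusted p under 0.05 (background 3.72% and 5.15%), and the list's median difference was -0.19, beside -0.09 over all genes. Snai2 (chromosome 16, 14705852 to 14709385), a repressor of E-cadherin that acts in crest migration, was 1.01, 7.44, 8.31 and 0.844 RPKM in retro-orbital tumors 1 to 4 and 5.05 to 68 (median 41.1) in the 8 others, a difference of -3.01 ± 0.64 (limma, adjusted p = 0.417). Tumors 1 and 4 lay below all others, and tumors 2 and 3 just within their lower range. Twist1, a basic helix-loop-helix factor of head mesenchyme, was 30.1, 60.1, 60.5 and 10.9 RPKM against 53.3 to 192 (median 108), a difference of -1.68 ± 0.44 (limma, adjusted p = 0.472), again lowest in tumors 1 and 4. Snai1, the close relative of Snai2, was 5.98, 13.5, 4.72 and 5.84 RPKM against 1.09 to 4.29 (median 2.6) and lay above the 8 others in all 4 tumors, with a difference of 1.16 ± 0.30 (limma, adjusted p = 0.472). Zic1 was 51.7, 0.508, 38 and 39.99 RPKM, low in tumor 2 alone. Foxd3 was at most 0.416 RPKM in a retro-orbital tumor and was not tested.

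Genes of the periocular mesenchyme varied among the 4 tumors. Of 12 tested of 14 listed, 1 was higher and 0 were lower at an unadjusted p under 0.05 (background 3.72% and 5.15%), and the higher one was Foxc2. It was 7.35, 0.275, 2.35 and 8.95 RPKM in tumors 1 to 4 against 0.135 to 1.79 (median 0.593) in the others, with tumors 1, 3 and 4 above all of them and tumor 2 within their range, a difference of 1.41 ± 0.48 (limma, adjusted p = 0.494). Foxc1, its close relative, was 3.02, 0.759, 82.8 and 4.45 RPKM against 2.03 to 94.1 (median 15.8), a difference of -1.25 ± 1.15, or -2.41 ± 1.06 without tumor 3 (limma, adjusted p = 0.743 and 0.619), and tumor 3 was the 1 retro-orbital tumor high in it. Eya1, a transcriptional coactivator of organ development, was 0.17, 0.0705, 11.5 and 0.0949 RPKM, with tumor 3 alone above 1 RPKM. The list's median difference was -0.20 with and -0.41 without tumor 3, where 1 gene was higher and 2 (Foxc1 and Eya1) were lower at an unadjusted p under 0.05 (background 3.68% and 4.24%).

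Of 14 tested genes of maxillary and mandibular arch patterning (18 listed), 1 was higher and 3 were lower at an unadjusted p under 0.05 (background 3.72% and 5.15%), with a median difference of -0.48. Mab21l1 was 0.877, 5.13, 2.4 and 1.26 RPKM against 3.19 to 67.9 (median 11.7) in the 8 others, a difference of -2.26 ± 0.83, and Dlx3 was 0.0425, 0.0261, 1.17 and 0.251 against 0.0582 to 12.4 (median 5.88), a difference of -1.73 ± 0.75 (limma, adjusted p = 0.506 and 0.553). Together with Mab21l2 these were the 3 lower genes, and in each of them some retro-orbital values overlapped the others. Lhx6, a homeobox gene of the oral side of the arch, was the higher one, at 1.14, 0.647, 1.76 and 6.84 RPKM against 0.193 to 1.55 (median 0.571), highest in tumor 4. Hand2 was 0.132, 0.457, 4.93 and 69 RPKM and spread over the whole range of the other tumors. For frontonasal and orbital homeobox genes (11 tested of 14) 0 had an unadjusted p under 0.05 (background 8.86%), and Alx1 was 87.7, 5.36, 24.5 and 87.3 RPKM in the 4 tumors against 0.525 to 222 (median 52.7).

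In the BMP pathway the ligand Bmp4 and the SMAD targets Id1 and Id4 lay on the lower side. Of 23 tested genes of 25 listed, 0 were higher and 4 lower at an unadjusted p under 0.05 (background 3.72% and 5.15%), and the median difference was -0.37, or -0.22 without tumor 3. Without retro-orbital tumor 2 or 4, 1 gene was lower. Bmp4 was 1.83, 2.34, 9.26 and 4.27 RPKM in retro-orbital tumors 1 to 4 and 1.95 to 303 (median 27.4) in the others, a difference of -2.76 ± 0.94 (limma, adjusted p = 0.494). Id1 was 23.5, 3.2, 38.5 and 12.8 RPKM against 12.5 to 159 (median 41), lowest in tumor 2, and Id4 was 3.29, 0.656, 19.5 and 1.2 against 6.77 to 82.4 (median 9.91), with tumors 1, 2 and 4 below all others and tumor 3 within their range. Their differences were -1.64 ± 0.65 and -1.82 ± 0.71 (limma, adjusted p = 0.535 and 0.528). Fst, a secreted antagonist of activin and BMP ligands, was 1.79, 135, 17.1 and 2.13 RPKM against 0.814 to 8.56 (median 2.58), and tumor 2 was the highest of all 12.

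Of 34 tested genes of 36 listed in the Wnt pathway, 3 were higher and 4 lower at an unadjusted p under 0.05 (background 3.72% and 5.15%), and none passed the adjusted threshold (limma), with a median difference of 0.01, or -0.38 without tumor 3. The higher genes were the ligands Wnt11 and Wnt2 and the nuclear effector Lef1, and the lower ones were Sfrp2, Rnf43, Rspo2 and the ligand Wnt5a. With the shared identifier part as a random block 9 were higher and 1 lower (background 7.54% and 10.4%). Wnt11 was 29.8, 11.9, 3.26 and 93.5 RPKM in tumors 1 to 4 against 0.771 to 19 (median 2.09), a difference of 2.37 ± 0.80. Wnt2 was 20.1, 23.6, 1.21 and 3.64 RPKM against 0.361 to 5.12 (median 1.69), a difference of 1.64 ± 0.64 (limma, adjusted p = 0.494 and 0.534). Both were lowest in tumor 3, and both were high in tumor 1. Lef1 had another order, at 0.971, 3.79, 8.36 and 8.36 RPKM against 0.374 to 5.75 (median 0.999). The secreted Wnt binding protein Sfrp2 was 2.77, 2.38, 11.2 and 3.04 RPKM against 6.37 to 397 (median 12.5), a difference of -2.25 ± 0.90 (limma, adjusted p = 0.535), and tumors 1, 2 and 4 lay below all others. Axin2, a common readout of canonical Wnt signalling, was 0.529, 1.67, 17 and 3.35 RPKM against 0.907 to 24.6 (median 6.84) and did not separate the groups.

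Of 31 tested genes of receptor tyrosine kinase signalling (35 listed), 3 were higher and 1 was lower at an unadjusted p under 0.05 (background 3.72% and 5.15%), with a median difference of -0.07, or -0.26 without tumor 3. Fgf2 was 24.9, 30.2, 7.1 and 4.85 RPKM in tumors 1 to 4 against 0.529 to 13.1 (median 1.67), a difference of 2.04 ± 0.60 (limma, adjusted p = 0.489), with tumors 1 and 2 above all others. Nrg1, the ligand of the receptors ERBB3 and ERBB4 that supports Schwann cell precursors, was 13.1, 18.8, 7.48 and 7.21 RPKM against 1.22 to 15.8 (median 2.03), a difference of 1.48 ± 0.53 (limma, adjusted p = 0.503). Erbb3 was 2.01, 0.322, 17.6 and 1.97 RPKM against 0.389 to 68.8 (median 18.8). Fgfr2 was 0.193, 0.445, 29.4 and 4.02 RPKM against 0.849 to 151 (median 34.8), a difference of -2.72 ± 1.29, or -3.70 ± 1.34 without tumor 3 (limma, adjusted p = 0.573 and 0.551). Tumors 1 and 2 were thus high in FGF2 message and low in Fgfr2 message. In the Hedgehog pathway all 10 tested genes of 14 had a negative difference, with a median of -0.40 and 0 at an unadjusted p under 0.05 (background 5.15% lower), or 2 without tumor 3 (background 4.24%). The target Gli1 was 3.72, 1.28, 15.6 and 7.84 RPKM against 3.19 to 23 (median 6.71).

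**Figure D4:**
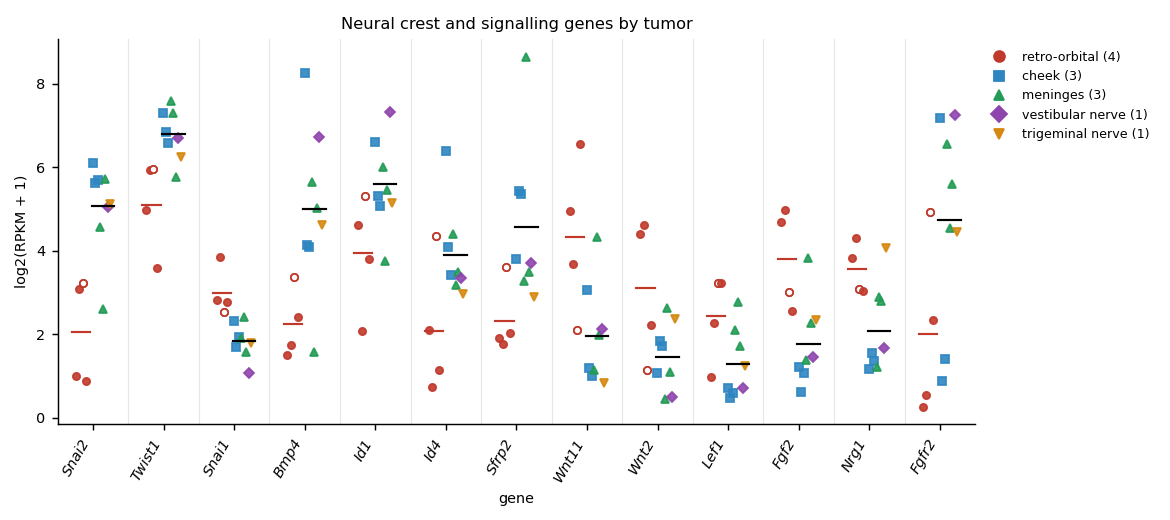
Level of 13 neural crest and signalling genes in each tumor, as log2(RPKM + 1). Points are tumors coloured by location, the open circle is retro-orbital tumor 3, and lines are the means of the retro-orbital tumors (red) and of the 8 others (black). Snai2, Bmp4 and Fgfr2 have their red mean lowest against the black one, by -3.01, -2.76 and -2.72, while Wnt11 and Fgf2 differ by 2.37 and 2.04.

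Cell cycle transcripts lay on the lower side, though no gene passed the threshold. All 20 genes of the proliferation list were tested and had a negative difference, 15 of them at an unadjusted p under 0.05 where 5.15% of all genes were, and their median difference was -0.70 beside -0.09 over all genes. Mcm4, a gene of the replicative helicase, had the largest difference of the list. The other helicase genes given here differed by -0.86 (Mcm6), -0.81 (Mcm5) and -0.70 (Mcm3). The mitotic genes Cdk1 and Birc5 differed by -0.81 and -0.79. Mcm4 was 26.4, 20.03, 20.3 and 39.7 RPKM in retro-orbital tumors 1 to 4 and 38.5 to 75.6 (median 48.5) in the 8 others, a difference of -1.02 ± 0.23 (limma, adjusted p = 0.472). Mcm6 was 33.5, 22.2, 15.7 and 32.1 against 25.5 to 77.4 (median 44.3), Mcm5 18.9, 12.5, 9.07 and 25.7 against 21.1 to 55.6 (median 26.1), and Mcm3 23.6, 16.7, 10.7 and 30.1 against 26.8 to 46.1 (median 31). Of mitotic genes, Cdk1, the kinase of mitotic entry, was 22.9, 15.9, 11.9 and 27.1 RPKM against 18.7 to 49.5 (median 34.7), and Birc5, the survivin of the chromosomal passenger complex, 9.3, 7.97, 5.84 and 14.6 against 13.3 to 22 (median 15.6). Mki67, the gene of the proliferation antigen Ki-67, was 35.9, 30.4, 18.6 and 49.8 RPKM against 34.4 to 63.1 (median 58.3), a difference of -0.71 ± 0.24 (limma, adjusted p = 0.494).

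In each of these genes except Mcm4 tumor 3 was the lowest, and tumor 4 lay within the range of the others. The summed RPKM of the list was 468, 380.4, 241 and 644 in tumors 1 to 4 and 521 to 927 (median 629.7) in the 8 others. Without tumor 3 the median difference was -0.43 and 5 of 20 genes had an unadjusted p under 0.05 (background 4.24% lower). Leaving out any other tumor gave 13 to 17 of 20. Outside the list, Prim1, picked above for not overlapping, and Shcbp1, chosen after its values were seen, lay below all others in all 4 tumors. Their separation is thus a description and adds nothing to the result of the list. Shcbp1 was 8.61, 4.64, 6.08 and 6.19 RPKM against 9.85 to 14.5 (median 13.2). It was called when retro-orbital tumor 1 was left out (-1.07, limma, adjusted p = 0.0494).

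E2F factors switch on genes of DNA replication at the entry to S phase, through sites near the start of their targets. The promoter windows of 3 of the helicase genes, chosen after their values were seen, are printed here to show these sites, 250 bases before to 50 bases after the start from RefSeq on GRCm38.p6, 5′ to 3′ on the gene's strand, with matches to TTTGGCGC, TTTCGCGC, TTTCCCGC or TTTGCCGC on either strand in capitals, where overlapping matches run together.
Mcm3 (chr1:20820263-20820562, minus strand): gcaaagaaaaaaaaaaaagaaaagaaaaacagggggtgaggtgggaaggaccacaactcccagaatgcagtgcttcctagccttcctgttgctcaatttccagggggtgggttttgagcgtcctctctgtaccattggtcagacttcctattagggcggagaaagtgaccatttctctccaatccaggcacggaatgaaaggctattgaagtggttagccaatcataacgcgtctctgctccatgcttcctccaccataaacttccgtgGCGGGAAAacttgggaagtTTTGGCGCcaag
Mcm5 (chr8:75109259-75109558, plus strand): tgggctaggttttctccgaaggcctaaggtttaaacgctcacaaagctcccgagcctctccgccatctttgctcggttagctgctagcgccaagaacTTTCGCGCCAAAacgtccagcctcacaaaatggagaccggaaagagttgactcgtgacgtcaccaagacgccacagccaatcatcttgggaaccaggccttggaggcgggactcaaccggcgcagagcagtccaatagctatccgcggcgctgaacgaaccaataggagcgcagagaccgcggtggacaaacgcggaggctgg
Mcm6 (chr1:128359656-128359955, minus strand): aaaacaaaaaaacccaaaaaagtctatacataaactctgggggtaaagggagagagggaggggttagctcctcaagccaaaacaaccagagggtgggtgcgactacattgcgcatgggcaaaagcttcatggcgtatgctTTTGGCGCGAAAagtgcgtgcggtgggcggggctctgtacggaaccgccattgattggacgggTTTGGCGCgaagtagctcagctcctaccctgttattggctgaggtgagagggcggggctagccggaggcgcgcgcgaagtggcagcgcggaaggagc

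These letters occurred in 744 of 32851 promoter windows of the same length (2.26%), in 475 of the 10845 tested genes that matched a window (4.38%) and in 5 of the 17 proliferation genes that matched one (29.4%). A match is a description of the letters and not of binding.

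Macrophage transcripts lay on the higher side. All 15 measured genes of the macrophage list (16 listed) had a positive difference, with a median of 0.73, or 0.90 without tumor 3, and 3 had an unadjusted p under 0.05 (background 3.72%), or 6 without tumor 3 (background 3.68%). The count was 0 when retro-orbital tumor 2, cheek tumor 1, meninges tumor 1 or the vestibular nerve tumor was left out, 1 without retro-orbital tumor 4, 7 without retro-orbital tumor 1 and 8 without meninges tumor 2. Their summed RPKM was 1965, 8818, 2672 and 4291 in retro-orbital tumors 1 to 4 against 1119.8 to 4186 (median 2205), so tumor 2 was the highest of all 12 and tumors 1 and 3 lay within the range of the others. The list's median difference was 0.90 against the cheek and 0.16 against the meninges tumors, beside 0.02 and -0.13 over all genes. The meninges sums were 2141, 4186 and 2234, so they overlapped the retro-orbital ones. Mrc1, the mannose receptor of tissue macrophages, was 16.5, 348, 73 and 318 RPKM against 16.8 to 67.2 (median 34.4), high in tumors 2 and 4. Cd68, a lysosomal marker of phagocytes, was 62.5, 244, 77.2 and 137 against 45.4 to 85.6 (median 70.4), and Lyz2, lysozyme, 258, 4444, 777 and 816 against 203 to 988 (median 365). Csf1r, the receptor that sustains the lineage, was 53, 146, 50.9 and 134 RPKM against 26.4 to 118 (median 48.9).

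Chemokine genes of the Ccl cluster on chromosome 11, chosen after their values were seen, were high in 3 of the 4 tumors. Ccl6 was 7.17, 318, 120.0 and 205 RPKM in tumors 1 to 4 against 5.22 to 18.1 (median 9.98) in the others, a difference of 3.11 ± 0.77 (limma, adjusted p = 0.472). Ccl8 was 6.5, 274, 162 and 732 against 7.85 to 43.2 (median 15.1), and Ccl9 4.0, 129, 56.9 and 102 against 4.28 to 15.6 (median 9.23). In all 3 genes tumors 2, 3 and 4 lay above every other tumor by a wide gap, and tumor 1 did not. Without retro-orbital tumor 1 they were among 9 genes called against the 8 others, at 4.26, 4.08 and 3.19 (limma, adjusted p = 0.00483, 0.0298 and 0.00739). With all 4 tumors none of the 3 was called. Tumor 1 is the retro-orbital tumor low in them, so these calls describe tumors 2, 3 and 4 and do not test the location. Retnlg, a resistin-like gene of myeloid cells, was 0.547, 3.24, 16.9 and 12.5 RPKM against 0.462 to 2.09 (median 1.14).

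Of 16 tested genes of hypoxia and glycolysis all had a positive difference, with a median of 0.59 and 3 at an unadjusted p under 0.05 (background 3.72% higher). Hk2, hexokinase 2, was 34.8, 12.1, 26.4 and 24.2 RPKM in tumors 1 to 4 against 2.81 to 14.4 (median 9.31), a difference of 1.26 ± 0.35 (limma, adjusted p = 0.472), and Bnip3, a mitophagy receptor, 77.1, 76.1, 47 and 13.9 against 8.66 to 37.7 (median 24.9). Tumor 1 stood out in this list. Its Vegfa was 218 RPKM, where tumors 2 to 4 were at 24.3, 27.5 and 19.2 and the 8 others at 14.2 to 28.4 (median 21.2). The median difference of the list was 0.27 without tumor 1. Car9, a classic hypoxia target, was 0.792, 0.66, 2.87 and 0.929 RPKM and was low in all 4 tumors.

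Of 14 tested genes of the fibroblast matrix, 2 were higher and 1 was lower at an unadjusted p under 0.05 (background 3.72% and 5.15%), with a median of 0.69. Without tumor 3, 0 were higher and 3, all fibrillar collagens, lower (background 3.68% and 4.24%). Lox, the enzyme that crosslinks collagen, was 685, 188, 156 and 21.6 RPKM in tumors 1 to 4 against 27.8 to 69.8 (median 48.8), with tumors 1, 2 and 3 above all others. Postn, periostin, was 1969, 2952, 274 and 81.9 RPKM against 34.3 to 2037 (median 171). The fibrillar collagens were on the lower side, with Col1a1 at 43.3, 90.3, 281 and 72.6 RPKM against 35.3 to 489.6 (median 258), Col1a2 at 465, 278, 613 and 241 against 205 to 1424 (median 938), and Col3a1 at a difference of -1.33 ± 0.42 (limma, adjusted p = 0.494). Dcn was 48.3, 85.3, 120.0 and 126 RPKM against 33.6 to 242 (median 79.2), a difference of 0.06 ± 0.49. The list's median was 0.19 without tumor 2.

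**Figure D5:**
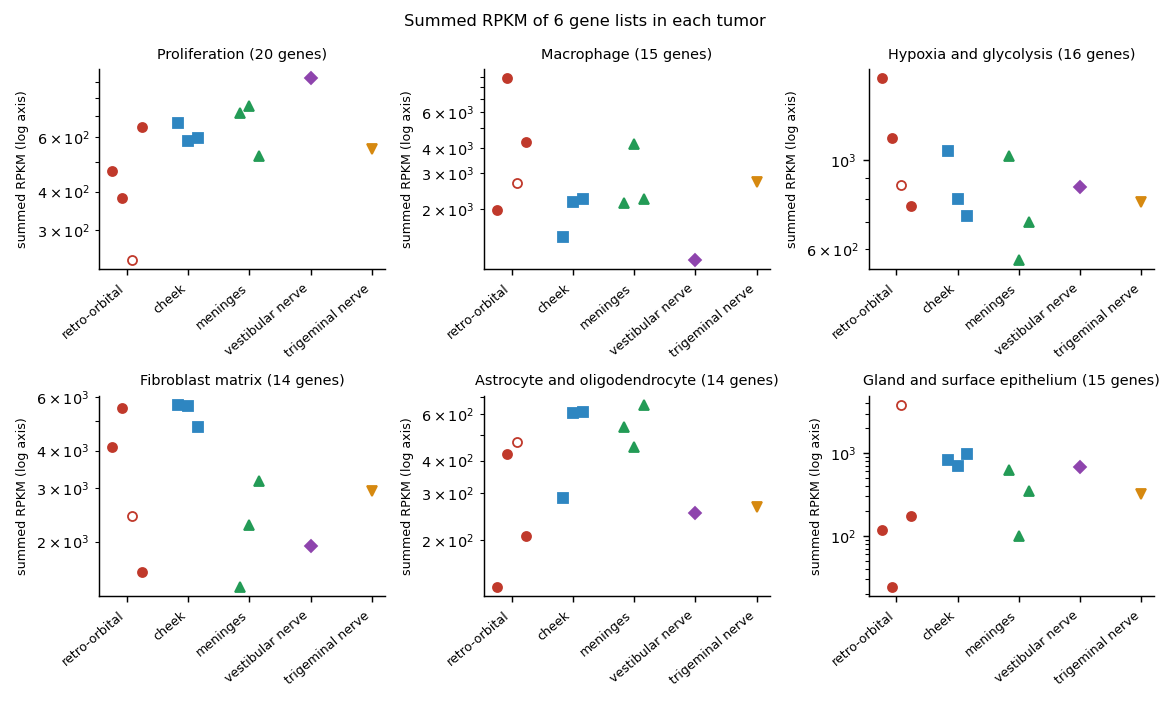
Summed RPKM of 6 gene lists in each tumor, by location, on log axes. Each point is 1 tumor and the open circle is retro-orbital tumor 3. Retro-orbital tumor 3 is the lowest of all for proliferation genes, at 241, and the highest for gland and surface epithelium genes, at 3761, while retro-orbital tumor 2 is the highest for macrophage genes, at 8818.

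Genes that set single tumors apart were found in each of the 4. At least 4-fold above the other 3 retro-orbital tumors, on the log2(RPKM + 1) scale, were 65 genes in tumor 1, 120 in tumor 2, 364 in tumor 3 and 71 in tumor 4 of 15043, and 58, 76, 50 and 20 were at least 4-fold below. Tumor 1 was marked by the collagenase Mmp1a (86.6 RPKM, next highest retro-orbital tumor 0.659), the stromelysin Mmp10 (251 and 8.36) and the neural adhesion molecule Cadm3 (231 and 12.1). Tumor 2 was marked by the osteoclast enzymes Ctsk (805 RPKM, next highest 28.4) and Mmp9 (618 and 16.4) and by the BMP antagonist Chrdl1 (225 and 1.97). Tumor 4 was marked by Retnla, a gene of alternatively activated macrophages (287 RPKM, next highest 21.7), and by Pi16 (103 and 5.29), and the highest of the 8 others was 3.83 RPKM for Retnla and 6.01 for Pi16.

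Tumor 3 was marked by secretory genes of nasal and glandular epithelium. Ltf, lactoferrin, was 2344 RPKM there and 3.79 in the next highest retro-orbital tumor, Bpifa1, a secretory protein of the upper airway, was 2390.3 and 4.11, Lcn2 was 2600.2 and 4.83, and Scgb1c1 was 2002 and 5.83. The epithelial markers Epcam and Krt5 were 40.1, 1.6, 171 and 17.3 RPKM and 0.169, 0.326, 87 and 14.9 RPKM in tumors 1 to 4. The summed RPKM of the 15 gland and surface epithelium markers was 116, 24.3, 3761 and 174 in the 4 tumors and 99.7 to 986 (median 647) in the others. The list's median difference was -0.34 with and -1.37 without tumor 3, and the sums of tumors 1, 2 and 4 lay below the median of the 8 others. Tumor 3 also held glial and pericyte transcripts, with Gfap at 128, Aqp4 at 121 and Rgs5 at 256 RPKM. These markers moved with the results that changed when tumor 3 was left out, and their part in those results was not tested.

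Skeletal muscle genes were uneven in all locations. Of 20 tested (25 listed), 0 were higher and 1 was lower at an unadjusted p under 0.05 (background 3.72% and 5.15%), with a median difference of 0.49. Acta1, the actin of muscle fibres, was 62.8, 10.4, 0.49 and 60.4 RPKM in tumors 1 to 4 against 0.608 to 196 (median 1.57), and Myh2, a fast myosin, 14.9, 2.71, 1.06 and 6.73 against 1.24 to 143 (median 25.1), a difference of -2.42 ± 0.91 (limma, adjusted p = 0.508). Tumors 1 and 4 held most of the muscle transcript among the 4. Of 12 tested neuronal genes (18 listed) 2 were lower and 0 higher at an unadjusted p under 0.05 (background 5.15% and 3.72%), and 0 were lower without tumor 3 (background 4.24%). Snap25, of the synaptic release machinery, was 11.6, 18.3, 12.8 and 5.82 RPKM against 9.12 to 30.9 (median 22.3), and Tubb3 1.01, 9.87, 0.721 and 0.465 against 1.09 to 10.9 (median 6.45), high in tumor 2 alone. Of 10 pericyte and smooth muscle genes 2 were higher (background 3.72%), or 0 without tumor 3 (background 3.68%), among them the potassium channel Kcnj8 at 4.24, 0.529, 2.39 and 5.96 RPKM against 0.367 to 2.03 (median 1.08).

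Subunits of SWI/SNF were spread around a small negative difference. Of 26 tested (28 listed), 21 had a negative difference, 0 were higher and 3 lower at an unadjusted p under 0.05 (background 3.72% and 5.15%), and the median was -0.21. Bcl7a was 4.0, 3.59, 5.98 and 2.21 RPKM against 4.94 to 11.9 (median 6.53), a difference of -0.78 ± 0.27, and Smarca4, the ATPase, 41.3, 34.2, 39 and 49.97 against 42.4 to 75.8 (median 50.4), a difference of -0.39 ± 0.17 (limma, adjusted p = 0.494 and 0.553).

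Several lists had 0 genes at an unadjusted p under 0.05 in either direction (background 8.86%). They were those of the retinoic acid pathway (17 tested, median -0.05), human rhabdoid subgroup genes (5 tested, median -0.08), retina and lens (6 tested, median -0.09), melanocytes (4 tested, median 0.01), cartilage and bone (11 tested, median 0.12), adipocytes (4 tested, median -0.12), Schwann cells (14 tested, median -0.34), endothelial cells (12 tested, median 0.06), T and NK cells (8 tested, median 0.54), B and plasma cells (2 tested, median 0.02), antigen presentation (17 tested, median 0.32), interferon-stimulated genes (22 tested, median 0.02), astrocytes and oligodendrocytes (13 tested, median -0.54) and red blood cells (1 tested). In some of these lists the medians against the cheek and against the meninges tumors had opposite signs. They were 1.26 and -1.07 for interferon-stimulated genes, 1.27 and -0.44 for antigen presentation and 0.41 and -1.14 for Schwann cells. Over all genes they were 0.02 and -0.13. The interferon sums were 839, 129 and 116 RPKM in cheek tumors 1 to 3 and 1625, 1177 and 1380 in meninges tumors 1 to 3. Without tumor 3, 2 genes of the retinoic acid pathway, 2 of cartilage and bone, and 1 each of Schwann cells, melanocytes and astrocytes and oligodendrocytes were lower at an unadjusted p under 0.05 (background 4.24%). Crabp1, a retinoic acid binding protein of migrating crest cells, spread from 10.0 to 985 RPKM within the location, with tumors 1 and 2 at 601 and 985. Neutrophil markers (5 tested, 1 of them, Retnlg, higher at an unadjusted p under 0.05, background 3.72%) had a median difference of 1.47, or 0.34 without tumor 3, where S100a8 was 128 RPKM. The 5 genes tested on the sex chromosomes had 0 at an unadjusted p under 0.05 (background 8.86%), with a median of -0.56 and differences from -0.84 to 0.84. Without tumor 3 the median was -1.20 and the differences ran from -1.74 to 1.73, with 1 positive and 4 negative in both fits. The labels do not give the sex of the animals, and a difference of sex between the groups was not tested.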

How the data were processed

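RNA of 12 tumors was measured, and groups follow the location labels. Per the labels and the methods of the study, reads were demultiplexed with bcl2fastq 2.17 and aligned to mm10 with STAR, uniquely mapped reads were kept, and fragments were counted on RefSeq genes with HTSeq. The values the authors deposited are RPKM, in 24060 rows for each tumor. Which transcript length, which mapped reads and which strand setting were used is not given in the sources used here. Among the rows, 1447 were at 0 in every tumor, and 27 show a date where a symbol belongs. The latter were kept in the fits and never named.

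RPKM are not counts, so no count test was run. With transcript lengths of GENCODE M21, the smallest steps of the values gave each tumor's fragment total. All 12 values of 5598 genes came out whole, within 0.02 fragments, at some annotated length, and of the values of 1 to 1000 fragments in genes with a single annotated length 36.1% to 48.6% were whole, so reads were not recovered for most genes. Genes with an RPKM of at least 1 in 3 or more tumors were tested as log2(RPKM + 1), pseudocount 1, with limma 3.58.1 (trended, robust prior) in R 4.3.3 and Benjamini-Hochberg adjustment at 0.05. This scale understates changes of genes at low values. Retro-orbital tumors were compared with the 8 others in 2 arms, with the same fit without tumor 3, and with the cheek and the meninges tumors in a fit with location as a factor, which share the retro-orbital tumors. Exact permutation tests were two-sided. The scripts were tested on simulated data.

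The members, gene lists and tests were chosen with earlier results of these data known. Some members of the lists are not reported here by name. Named genes are Smarcb1, up to 10 called genes in each direction by size, genes without overlap to make 10, and in each list the defining markers and the 3 members with the largest difference, to which genes named as chosen after their values were seen were added. Unadjusted p-values are given as counts beside the share over all genes, except where a tumor other than retro-orbital tumor 3 was left out. Positions are from GENCODE M21 and promoters from RefSeq, both on GRCm38, the build of mm10. Other steps ran in Python 3.11.15, with pandas 2.3.3, numpy 2.4.6 and scipy 1.17.1, and plots in matplotlib 3.10.9. Alternatives to the fits against the 8 others changed the pseudocount, filter, scaling, prior, weights, block, covariate, averaging of locations and tumors left out. Against the cheek and the meninges tumors only the pseudocount and the tumors left out were changed. The genes called there were thus not refitted with the shared identifier part as a block.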

Additional observations from a re-analysis of the deposited data

Results flagged for a closer look

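Within the 4 retro-orbital tumors, 6 of the 92 genes screened had 1 tumor so far from the other 3 that its gap to the nearest, divided by the range of the 4 values of log2(RPKM + 1), passed Dixon's 95% critical value for 4 values. Chance flags about 1 in 20 groups, so the count of 6 is near that share and the flags only describe values. Tumor 3 stood apart in 3 of them. Ltf was 1.6, 1.46, 2344 and 3.79 RPKM in tumors 1 to 4, a ratio of 0.903 with tumor 3 high. Sfrp2 was 2.77, 2.38, 11.2 and 3.04 RPKM, a ratio of 0.861 with tumor 3 high. The hairpin feature Mir378a was 5.54, 5.1, 0 and 7.28 RPKM, a ratio of 0.856 with tumor 3 listed at 0. Tumor 2 stood apart in Zic1, a crest and meningeal transcription factor, at 51.7, 0.508, 38 and 39.99 RPKM (ratio 0.915, low), and in the neuronal tubulin Tubb3, at 1.01, 9.87, 0.721 and 0.465 RPKM (ratio 0.843, high). Tumor 1 stood apart in Vegfa, the growth factor of vessels, at 218, 24.3, 27.5 and 19.2 RPKM (ratio 0.855, high).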

How the results depend on the processing

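No paired analysis was possible because the replicate numbers follow the order of deposition and tie no tumors together. The shared identifier part was used as a random block instead (consensus correlation 0.746, or 0.779 without tumor 3), and it left 0 genes called in both fits. It did move the lists, with 7.54% of all genes higher and 10.4% lower at an unadjusted p under 0.05 and a median over all genes of -0.06. With the block the list medians changed sign to 0.46 for the periocular mesenchyme, 0.30 for neural crest specifiers and 1.46 for gland and surface epithelium, and were near 0 for arch patterning (0.00226). The retinoic acid, adipocyte, antigen presentation and interferon lists also changed sign, to 0.09, 0.07, -0.02 and -0.15. They were 0.35 for the Wnt pathway, -0.07 for the BMP pathway, 0.28 for macrophages, 3.16 for neutrophils, 0.80 for pericytes and smooth muscle, 0.75 for hypoxia and glycolysis and -0.88 for proliferation, where 18 of 20 genes were lower.

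The count of 0 genes against the 8 others did not change with the pseudocount, filter, scaling, prior, weights or covariate. The unadjusted split of 559 higher and 774 lower genes became 746 and 570 with a trimmed mean of ratios and 730 and 715 with quantile normalization, where 12 and 14 of 20 proliferation genes were lower. Against the mean of the 4 other location means the count of called genes was 2 (Thbs4 higher and 1190002N15Rik lower, limma), and with single tumors left out it ranged from 0 to 9, with 9 without retro-orbital tumor 1 and 1 without the trigeminal nerve tumor. Without tumor 3 from the start, leaving out a further tumor gave 0 to 16, with 16 without retro-orbital tumor 1 and 1 without retro-orbital tumor 4 or meninges tumor 2. With tumors left out the count ranged from 0 to 147 against the cheek and from 0 to 41 against the meninges. With a pseudocount of 0.1 the count against the meninges was 2, and Hoxd10 and Hoxd11 were not among them (limma, adjusted p = 0.0711 and 0.142). Both genes miss the filter when a meninges tumor is left out. The difference in mean distance was 0.0267 with 1000 genes, 0.000110 with Spearman's rho and 0.0590 without tumor 3, each opposite in sign to -0.00147. With single retro-orbital tumors left out it ranged from -0.0330 to 0.0590.

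Of the 92 genes whose alternatives were computed, 2095 of 2105 values kept direction and side of the threshold, 6 crossed it (given above for Slc22a17, Thbs4, Ccl6, Ccl8, Ccl9 and Shcbp1) and 4 changed sign: Acta1 (-0.648), Krt5 (1.94) and Crabp1 (-0.0234) with the identifier block, and Ltf (-0.918) without tumor 3, where leaving out single tumors moved it between -0.918 and 2.38. The cause of these changes was not tested. Depth limits genes at a few fragments, and 4 tumors against 8 leave small differences undetected.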

Other observations

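The retro-orbital tumors listed more genes at 0 than the other tumors. Of 24060 rows, 6436, 6011, 6411 and 6080 were at 0 in retro-orbital tumors 1 to 4, against 2823 to 5922 in the 8 others, so the groups did not overlap. The means differed by 1493 genes, a comparison chosen after the values were seen and given with no test. The fragment totals of the retro-orbital tumors were 27084402 to 57128422 and those of the others 13206168 to 32624865, and the part of depth in the zeros was not tested. Genes at 1 RPKM or more numbered 12706 to 14178 in the retro-orbital and 12575 to 14528 in the other tumors. In 11 genes all 4 retro-orbital tumors were at 0 and all 8 others above 0, in 0 genes the reverse held, and 2842 genes at 0 in all 4 were above 0 in at least 1 other tumor, at up to 22.8 RPKM.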
